A study of Zanthoxylum armatum with 15 samples.

Results

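Fruits of *Zanthoxylum armatum* (green prickly ash, a spice shrub of the citrus family) were compared with stems of the same cultivar by RNA-seq, over every unigene that passed a filter on low counts. Of the 111318 unigenes of the de novo assembly, 57488 passed and were tested, and 53830 were too scarce. The comparison used 6 of the 15 libraries directly, 3 of fruits and 3 of stems, while the libraries of leaf buds, mature leaves and roots entered the fit to estimate the spread between replicates. All material came from trees of the cultivar Hanyuan putaoqing, with no treatment named in the labels, and was collected in May, with the fruits at full size. Each replicate mixed material of 3 trees, so differences between single trees cannot be seen, and a fruit sample holds peel, seed and other tissues together. In such bulk samples, fewer cells of a type and less RNA per cell cannot be told apart.

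Estimated counts summed to 19173523, 23829321 and 21591798 in the fruit libraries and to 21346216, 23346838 and 22348795 in the stem libraries. Across unigenes, log10(FPKM + 1) correlated at 0.969 to 0.974 between fruit libraries and at 0.971 to 0.977 between stem libraries, against 0.889 to 0.904 between a fruit and a stem library. FPKM gives the fragments of a unigene relative to its length and to the fragments of the library. The 10 most abundant unigenes took 6.99% to 8.62% of all counts in fruit libraries and 2.28% to 2.39% in stem libraries, and FPKM carries no correction for that. No unigene in the annotation used here marks a fruit or a stem, so the organ labels were not tested against markers.

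Terpenoids, which carry much of the aroma of prickly ash, are built from isopentenyl diphosphate. Plants make this precursor by the mevalonate (MVA) pathway in the cytosol and the methylerythritol phosphate (MEP) pathway in plastids, and terpene synthases then turn prenyl diphosphates into monoterpenes, sesquiterpenes and larger products. Fatty acids are made in plastids and extended outside them, and very long chains feed the waxes that cover fruits and young stems. Stems also hold meristematic, vascular and elongating tissue, in which auxin transport and signalling are known to be active.

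Names of unigenes come from the supplementary tables of the paper, which pair 629 of the 1038 unigenes listed there with a gene name, and the deposited files hold identifiers only. The study designed qRT-PCR primers for some of the unigenes described below, and 6 of these pairs are shown, because they tie the named terpenoid, flavonoid and fatty acid transcripts to a sequence. Each is given 5′ to 3′, with the forward primer first.
Cluster-12235.42000 (limonene synthase) forward: ctgcgacaaatccaatcatagagaa
Cluster-12235.42000 reverse: ctcctctctttaattcgtccgatga
Cluster-12235.42010 (TPS03) forward: gcaggaagatacttacgcaggtc
Cluster-12235.42010 reverse: tttcatgtaatctggaagcggtt
Cluster-12235.40340 (GGPPS12) forward: gcctagtcttattcccaaatccaag
Cluster-12235.40340 reverse: gtgttatctcaaccatagcccgta
Cluster-12235.46034 (DXS) forward: atactaatggaaggcgatagggtg
Cluster-12235.46034 reverse: ccatccagaatgccacttaaactta
Cluster-12235.42665 (chalcone synthase) forward: cttatccagaaccgtgcctcag
Cluster-12235.42665 reverse: aagtataaacaggacgcttggacc
Cluster-12235.42753 (AAD5) forward: taatgtacgatggcgaggatgat
Cluster-12235.42753 reverse: ctaattcttggaggcaaaccacag

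Between fruits and stems, 6816 unigenes (11.9% of those tested) were higher in fruits and 6101 (10.6%) were lower, by edgeR's quasi-likelihood F test, where a call needed an adjusted p below 0.05 and a change of more than 1 log2 unit. The other 44571 unigenes were not called, among them 8983 whose adjusted p passed but whose change was within 1 log2 unit. The median size of a called change was 1.96 log2 units for higher and 2.11 for lower unigenes. Changes over 5 log2 units were found for 690 higher unigenes (10.1%) and 431 lower ones (7.06%). Of the called unigenes, 6697 of the higher and 6039 of the lower had fruit and stem libraries that did not overlap, and over all unigenes tested 26.6% had every fruit library above every stem library and 23.3% the opposite.

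The higher unigenes took a larger part of the counts in fruits than the lower ones did in stems. In fruit libraries they held 31.7% to 34.5% of all counts, and in stem libraries 7.43% to 8.12%. The lower unigenes held 16.5% to 17% of all counts in stem libraries and 3.4% to 3.57% in fruit libraries. A median higher unigene had a mean of 7.01 FPKM in fruits and 1.81 in stems, and a median lower one 1.1 in fruits and 6.86 in stems. Counts of 0 in all 3 stem libraries were found for 371 higher unigenes, and in all 3 fruit libraries for 217 lower ones.

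**Figure D1:**
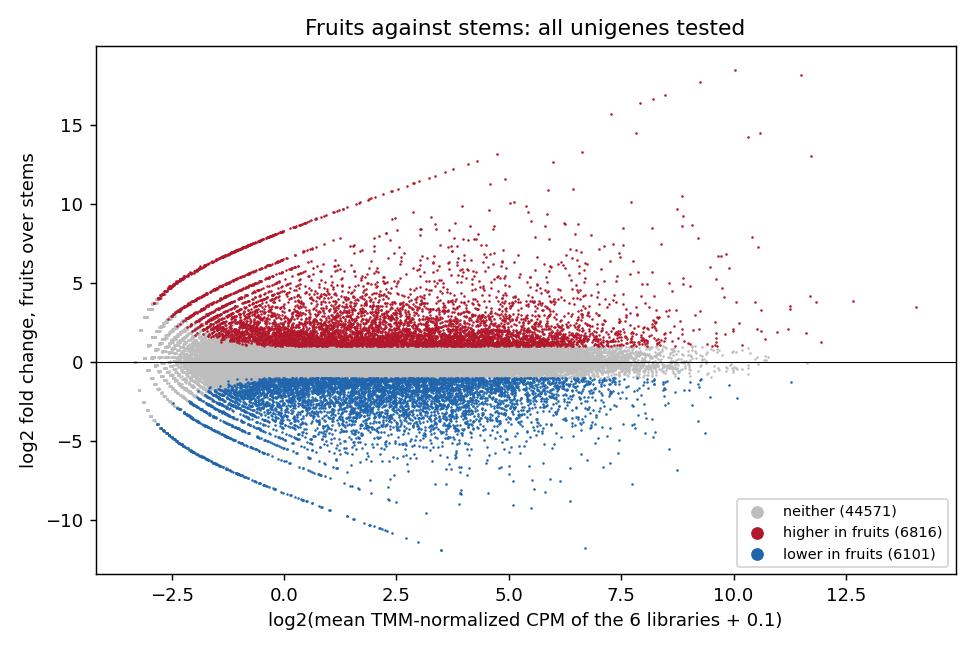
Each point is 1 of the 57488 unigenes tested, with the mean level of the 6 libraries on the horizontal axis (log2 of TMM-normalized CPM plus 0.1) and the fitted log2 fold change of fruits over stems on the vertical axis. The 6816 higher and 6101 lower unigenes lie on both sides of 0 at all levels, and the curved lines at the left and outer edges are unigenes with 0 or few counts in 1 organ, whose fitted values are not bounds.

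The balance of directions depended on the scaling of the libraries. TMM normalization on 15 libraries gave a median log2 fold change of 0.027 over all unigenes tested, with 52.8% of the called unigenes higher in fruits. Scaling by library totals alone moved the median by -0.25 log2 units, and then 5196 were higher and 8100 lower, a share of 39.1% higher. With only the 6 libraries compared, 5789 were higher and 5987 lower (49.2% higher).

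The levels in the other organs differed between the higher and the lower set, although those libraries also entered the filter, the scaling and the estimate of spread. Of the unigenes higher in fruits, 2939 (43.1%) had their highest mean level of the 5 organs in fruits, 2311 (33.9%) in mature leaves, 1133 (16.6%) in roots and 433 (6.35%) in leaf buds. Of those lower in fruits, 2664 (43.7%) were highest in stems, 2122 (34.8%) in leaf buds, 922 (15.1%) in roots and 393 (6.44%) in mature leaves. Over all unigenes tested, 12.7% were highest in fruits, 12.7% in stems, 26% in mature leaves, 21.1% in leaf buds and 27.5% in roots. Mature leaves thus went with the fruit side and leaf buds with the stem side, as counts with no test.

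**Figure D2:**
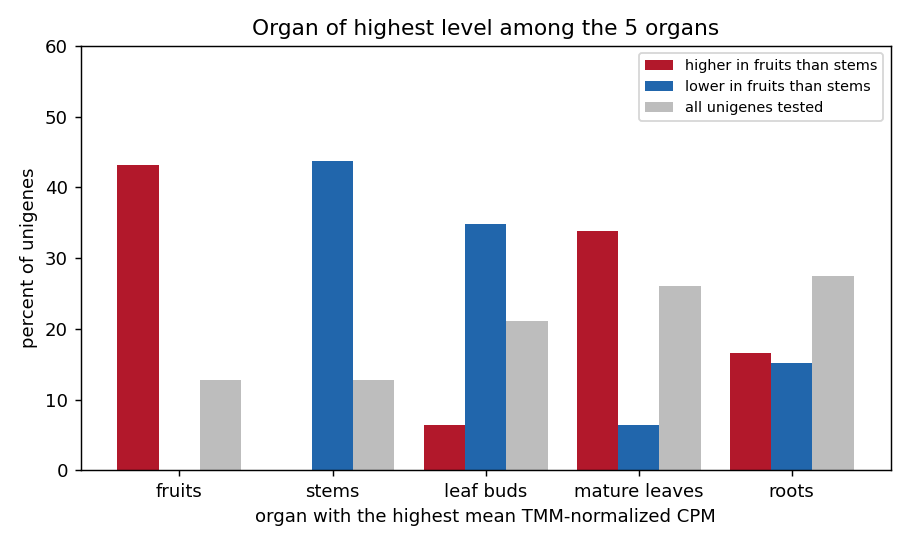
Bars give the percent of unigenes with their highest mean TMM-normalized level in each of the 5 organs, for unigenes higher in fruits than stems, lower in fruits than stems, and all unigenes tested. Mature leaves hold 33.9% of the higher and 6.44% of the lower unigenes, and leaf buds hold 6.35% and 34.8%. The contrast itself fixes that no higher unigene is highest in stems and no lower one in fruits.

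The unigenes with the most extreme changes are named in none of the tables used here. Cluster-12235.42593 had 50682, 33136 and 32655 counts in the fruit libraries and 0 in each stem library, which is at least 48700-fold higher in fruits, where 3 counts in the stem libraries together stand for the limit of detection. Cluster-12235.42671 had 121921, 92201 and 112214 counts in fruits and 0, 1 and 0 in stems. On the stem side, Cluster-12235.10127 had 498, 479 and 631 counts in stems and 0 in each fruit library, at least 427-fold lower in fruits. Cluster-12235.1089 had 719, 619 and 263 counts in stems and 0 in each fruit library, at least 425-fold lower in fruits.

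Pathway lists that come from annotation alone were read first, because the study did not choose them by expression. Of the 12 KEGG lists held whole, which share members and hold 117 unigenes in all, 91 unigenes were tested, 21 (23.1%) were higher in fruits and 16 (17.6%) lower, with a median log2 fold change of 0.12. Another 19 lists were chosen with earlier results of these libraries known, and were held only in part, by their first members. These gave 291 tested unigenes, of which 109 (37.5%) were higher and 36 (12.4%) lower, with a median of 0.69. Among all unigenes tested, 11.9% were higher and 10.6% lower. The lists with the largest percent of higher members were fatty acid degradation (10 of 13, none lower), alpha-linolenic acid metabolism (12 of 16, 1 lower), terpenoid backbone biosynthesis (14 of 19, 2 lower) and cutin, suberine and wax biosynthesis (12 of 18, 2 lower), all held in part. Brassinosteroid biosynthesis, held whole, leaned to stems, with 9 of 16 lower and 3 higher and a median of -1.16. DNA replication, held in part, had 7 of 19 lower and 0 higher, with a median of -0.57. Some of these counts rested on changes near the threshold. With changes over 2 log2 units, fatty acid degradation and alpha-linolenic acid metabolism each had 4 higher members. Brassinosteroid biosynthesis and DNA replication then each had 4 lower ones. In lipoic acid metabolism (10 tested), non-homologous end-joining (13) and O-glycan biosynthesis (5), no member was called.

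**Figure D3:**
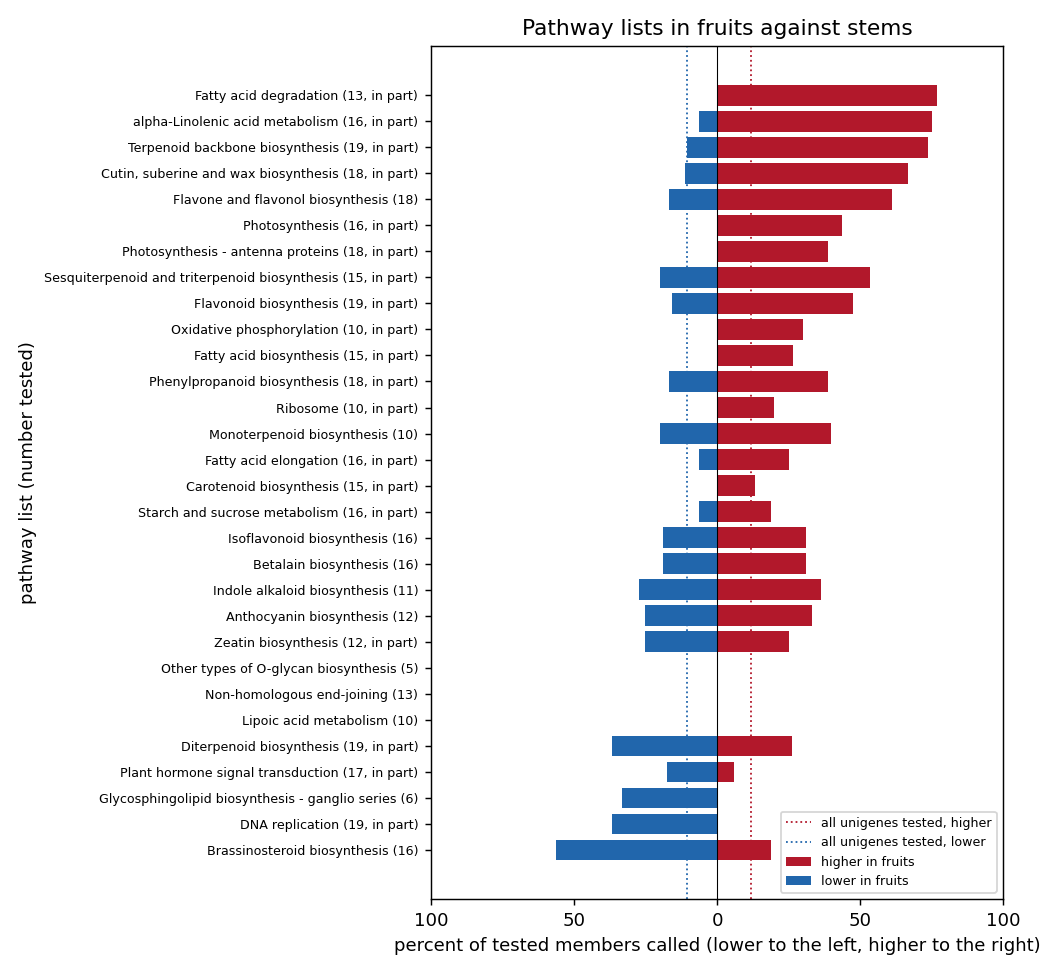
Bars give the percent of tested members of each KEGG list that were called higher (right) or lower (left) in fruits than in stems, with the number tested in parentheses and dotted lines at the 11.9% and 10.6% of all unigenes tested. Fatty acid degradation reached 76.9% higher, and brassinosteroid biosynthesis 56.2% lower. Lists marked in part are held only by their first members, and lists with under 5 tested members are left out.

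Monoterpenoid biosynthesis was held whole, with 11 unigenes, of which 10 were tested, 4 were higher in fruits and 2 lower. With library totals 2 were higher, and with a filter of 1 CPM or only the 6 libraries 1 was lower. The median log2 fold change was 0.5. The limonene synthase unigene Cluster-12235.42000, annotated as the enzyme that closes geranyl diphosphate to limonene, had 1720, 1860 and 1560 FPKM in fruits and 9.7, 7.77 and 9.89 in stems. Its log2 fold change was 7.87 (SE 0.18, adjusted p = 5.85e-16, edgeR). The terpene synthase Cluster-12235.42010, whose closest Arabidopsis match is TPS03, had 1150, 1380 and 1200 FPKM in fruits and 5.47, 4.79 and 8.63 in stems, a log2 fold change of 7.91 (SE 0.23, adjusted p = 9.8e-16, edgeR). These 2 unigenes made up nearly all of the list's level in fruits, where the list summed to between 2890 and 3380 FPKM, against 138 to 145 in stems.

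The remaining members of the monoterpenoid list behaved otherwise. Cluster-12235.46952 had 20.3, 20.5 and 18.1 FPKM in fruits and 11.4, 11.8 and 10.1 in stems (log2 fold change 1.12, SE 0.13), and Cluster-12235.46950 rose by 1.05 (SE 0.34). Without fruit replicate 1 or stem replicate 3, Cluster-12235.46950 was no longer called (0.92 and 0.88 log2 units). Cluster-12235.503 had 0 counts in fruits and 14, 21 and 21 in stems, at least 14.9-fold lower in fruits. Cluster-12235.504 was at 0 in fruits and at 10, 5 and 3 counts in stems, at least 4.78-fold lower. Both were highest in roots. The other 4 tested members lay between 0.12 and 0.73 log2 units and were not called, and 3 of them turned to the stem side with library totals.

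The study's own table of terpenoid and fatty acid genes holds 74 unigenes in 27 steps, picked there as higher in fruits on these same libraries. All 74 were higher here too, which the choice fixes and which is no independent evidence, so their sizes are given as a description. The 7 unigenes of the MVA pathway ran from 1.05 to 4.15 log2 units (median 1.88). The 17 of the MEP pathway ran from 1.37 to 7.86 (median 3.86). The 17 unigenes of prenyl diphosphate synthases, terpene synthases and related enzymes ran from 2.54 to 10.49 (median 5.97). In summed FPKM, the MVA set was at 568 to 647 in fruits and 164 to 186 in stems, and the MEP set at 2670 to 3420 in fruits and 247 to 270 in stems. The prenyl diphosphate and terpene set was at 4910 to 5840 FPKM in fruits and 92.7 to 101 in stems.

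**Figure D4:**
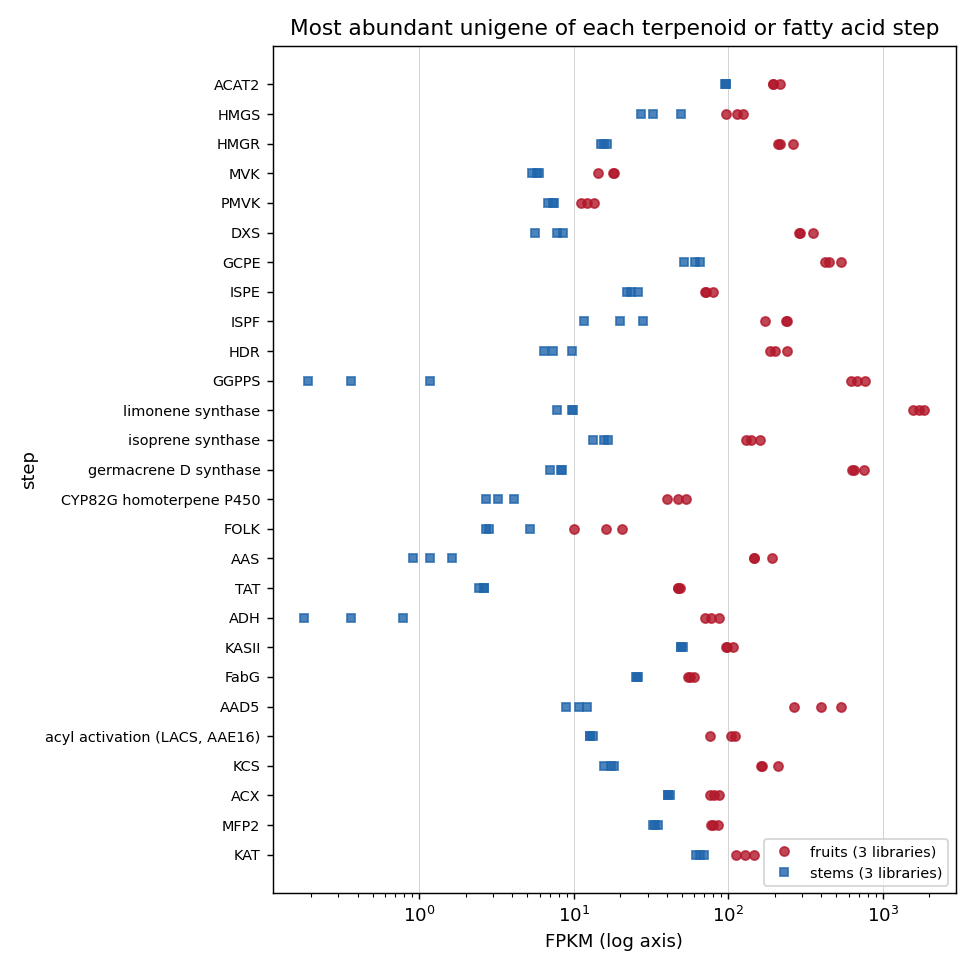
Points are the FPKM (log axis) of the 3 fruit and 3 stem libraries for the most abundant unigene of each of the 27 steps. Every fruit library lies above every stem library in all 27. The study picked these unigenes as higher in fruits on the same libraries, so this order is no independent evidence. Of all unigenes tested, 26.6% have it. The gap runs from PMVK, at 11.1 to 13.5 in fruits and 6.8 to 7.42 in stems, to GGPPS. The GGPPS unigene, matched to the small regulatory subunit GGPPS12, is at 625 to 770 in fruits and 0.19 to 1.18 in stems.

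Within the MVA pathway, HMGR, its rate-limiting enzyme, differed most. Its unigene Cluster-12235.40934 had 209, 261 and 217 FPKM in fruits and 15, 15.7 and 16.3 in stems, a log2 fold change of 4.15 (SE 0.12). Phosphomevalonate kinase (Cluster-12235.28045) stood at 11.1, 13.5 and 12.1 FPKM in fruits and 7.42, 6.8 and 7.35 in stems, and its change of 1.05 (SE 0.11) was the smallest of the set. It fell to 0.98 without fruit replicate 2 and to 0.78 with library totals, under the threshold in both cases.

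In the MEP pathway, DXS makes the first intermediate and has 7 unigenes. The most abundant, Cluster-12235.46034, had 292, 353 and 285 FPKM in fruits and 5.62, 7.78 and 8.54 in stems (log2 fold change 5.69, SE 0.16). Cluster-12235.38535 had 214, 317 and 299 FPKM in fruits and 1.43, 1.72 and 1.79 in stems (7.86, SE 0.29), but on only 399, 674 and 498 counts in fruits and 2, 3 and 3 in stems, since this unigene is short. The last enzyme, HDR (Cluster-12235.50616), had 207 ± 27.4 FPKM in fruits and 7.82 ± 1.72 in stems (SD, n = 3 each), a log2 fold change of 5.04 (SE 0.19). GCPE, the step before it, was the most abundant of the pathway in both organs, with Cluster-12235.41588 at 423, 539 and 445 FPKM in fruits and 60.8, 65.2 and 52 in stems (3.27, SE 0.11). Not every DXS unigene was on the fruit side, since the wider family of 9 unigenes with that name had 7 higher, all picked by the study for fruits, and 1 lower.

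The largest fitted change of a single unigene in the table was in the GGPPS step. The median of the 4 GGPPS unigenes was 5.97, below the 7.89 of limonene synthase. Cluster-12235.40340, matched to GGPPS12, the small regulatory subunit of geranylgeranyl diphosphate synthase in Arabidopsis, had 676, 770 and 625 FPKM in fruits and 0.19, 0.36 and 1.18 in stems. Its log2 fold change of 10.49 (SE 0.32, adjusted p = 1.56e-14, edgeR) became 11.52 without stem replicate 3, the library with 31 of its 46 stem counts. The other 3 GGPPS unigenes were far less abundant in fruits, from 2.33 to 54.7 FPKM. Phytoene synthase (crtB), which makes the first carotenoid, had 3 unigenes, all picked by the study as higher in fruits and all higher here by that choice, led by Cluster-12235.42859 with 89, 106 and 84.7 FPKM in fruits and 1.62, 1.16 and 1.81 in stems (6.22, SE 0.19).

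Germacrene D synthases make sesquiterpenes, and all 8 unigenes with that name were higher in fruits, from 1.88 to 9.7 log2 units. Together they stood at 1330 to 1560 FPKM in fruits and 51.9 to 56.6 in stems. The most abundant, Cluster-12235.42686 (match TPS21), had 648, 757 and 630 FPKM in fruits and 7, 8.34 and 8.21 in stems (6.72, SE 0.13). Cluster-12235.56663 had 92, 104 and 77 counts in fruits and 0 in stems, at least 114-fold higher in fruits. The study picked these unigenes from organ comparisons of the same libraries. Of the 8, 5 come from its rows for fruits, so those calls are no independent evidence. The 3 others, listed for other organs, were higher too, where 11.9% of all unigenes tested were higher. In the diterpenoid list, held in part, the order was mixed, with 5 of 19 higher and 7 lower. Its extremes were Cluster-12235.19063, a gibberellin 2-oxidase (E1.14.11.13) that inactivates gibberellins, with 38.9, 22.5 and 35.6 FPKM in fruits and 0.06, 0.02 and 0.08 in stems (9.51, SE 0.32), and Cluster-12235.65124, at 0.74, 1.59 and 2.34 FPKM in fruits and 43.7, 41.5 and 57.8 in stems (-4.5, SE 0.39).

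Genes of fatty acid synthesis in the same table had a median between those of the MVA and the MEP sets. The 20 unigenes of synthesis, desaturation, activation and elongation ran from 1.05 to 5.54 log2 units (median 2.74), and the 6 of beta-oxidation from 1.26 to 3.05 (median 1.48). KASII, which extends palmitate to stearate in plastids, had 96.4, 108 and 97.5 FPKM in fruits and 49.6, 49.3 and 50.9 in stems for Cluster-12235.36948 (1.29, SE 0.09). Its second unigene, Cluster-12235.47316, changed by 1.05 (SE 0.12) and dropped under the threshold without fruit replicate 2 (0.95), without stem replicate 1 (0.98) and with library totals (0.78). Cluster-12235.42753, matched to the acyl-ACP desaturase AAD5, which introduces the first double bond, had 534, 268 and 397 FPKM in fruits and 8.84, 10.8 and 12.2 in stems, the largest change of the group (5.54, SE 0.23). The thiolase of beta-oxidation, Cluster-12235.55699 (match KAT2), had 112, 146 and 129 FPKM in fruits and 69.3, 61.9 and 65.7 in stems (1.38, SE 0.16).

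Genes of surface wax differed in how alike their members were. CER1, an enzyme of wax alkane formation in Arabidopsis, had 7 unigenes, all higher in fruits within a narrow range of 6.29 to 7.38 log2 units. Their summed level was 350 to 429 FPKM in fruits and 3.93 to 6.21 in stems, and the most abundant, Cluster-12235.44346, had 96.9, 130 and 117 FPKM in fruits and 1.31, 2.44 and 1.48 in stems. The study picked all 7 as higher in fruits on these libraries, so the count is no independent evidence, and unigenes of 1 name may share fragments. Of the fatty acyl reductases (FAR), which make wax alcohols, 3 of 5 were higher and 1 lower. Of the 3 higher, 1 was so by the study's choice. Another, Cluster-12235.32575, rested on 8, 8 and 2 counts in fruits and 1, 0 and 0 in stems. The lower one, Cluster-12235.10179 (-1.02), was no longer called without fruit replicate 1 (-0.99) or without stem replicate 3 (-0.93). Cluster-12235.32576 had 31.7, 41 and 31.5 FPKM in fruits and 0.1, 0.09 and 0.06 in stems (8.9, SE 0.23), yet was highest in mature leaves, at a mean of 119 FPKM.

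Ketoacyl-CoA synthases (KCS), which elongate very long chains, had 6 of 8 tested unigenes higher and 1 lower, and the 6 are those the study picked as higher in fruits. Cluster-12235.44549 (match KCS6) had 163, 164 and 209 FPKM in fruits and 18.2, 17.4 and 15.7 in stems (3.67, SE 0.14). Cluster-12235.57397 ran the other way, at 0, 0.33 and 0.5 FPKM in fruits and 4.27, 4.69 and 7.31 in stems (-3.87, SE 0.6). Lipoxygenases (LOX2S), which oxidize linolenic acid toward jasmonate, had 5 of 7 higher by 1.14 to 2.14 log2 units and 1 lower. The most abundant, Cluster-12235.43048, had 1130, 1250 and 1000 FPKM in fruits and 488, 453 and 541 in stems (1.47, SE 0.15). The smallest of these calls, Cluster-12235.10347 at 1.14, was lost in 5 of the 6 fits that left out a library of fruits or stems. Jasmonate O-methyltransferase (Cluster-12235.46490), which makes methyl jasmonate, had 91.8, 102 and 83.7 FPKM in fruits and 0.99, 1.02 and 1.54 in stems (6.57, SE 0.2).

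Chalcone synthase opens flavonoid synthesis, and its 8 unigenes fell into unlike classes, with 4 higher, 1 lower and 3 not called, where the 4 higher are those the study listed for fruits. Cluster-12235.42665 had 5810, 3790 and 6230 FPKM in fruits and 0.5, 0.53 and 1.31 in stems, a log2 fold change of 13.01 (SE 0.32, adjusted p = 1.33e-16, edgeR). It was the largest fitted change of any unigene with a name, and was 13.61 without stem replicate 3, which held 33 of its 59 stem counts. Its mean was 0.893 FPKM in leaf buds, 0.0267 in mature leaves and 0.04 in roots. Cluster-12235.48131 had 18.8, 20.2 and 17.9 FPKM in fruits and 18.2, 19.5 and 25.6 in stems, and Cluster-12235.44364 had 18.4, 17.8 and 20.4 in fruits and 25, 22.7 and 23.5 in stems. Neither was called, with adjusted p of 0.533 and 0.845 by edgeR, and the sign of both small changes depended on the setting. Cluster-12235.10774 was lower in fruits, at 0.56, 0.66 and 0.42 FPKM against 4.17, 3.5 and 4.86 (-2.61, SE 0.3).

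Other phenylpropanoid enzymes were mixed. All 3 unigenes of 4CL, which activates cinnamic acids, were picked by the study for fruits and were higher by that choice, led by Cluster-12235.40838 with 58.4, 26.3 and 34.7 FPKM in fruits and 0.78, 0.79 and 0.89 in stems (5.89, SE 0.26). Cinnamyl-alcohol dehydrogenase (E1.1.1.195) had 3 of 5 tested unigenes higher and 0 lower, 2 of the 3 by the study's choice. Among these, Cluster-12235.44259 had 169, 116 and 160 FPKM in fruits and 0.94, 1.08 and 1.14 in stems (7.42, SE 0.22). The acyltransferase HCT of lignin precursor synthesis had 5 of 13 higher and 3 lower, from -5.41 to 7.76 log2 units. Of the 5 higher, 2 were so by the study's choice. Class III peroxidases (E1.11.1.7), some of which polymerize lignin, were the exception, with 7 of 14 lower and 3 higher and a median of -1.43. The study listed all 14 from organ comparisons of these libraries, 1 of the 3 higher for fruits. Their summed level did not lean to stems, at 189 to 211 FPKM in fruits and 132 to 162 in stems. Cluster-12235.2960 had 0.31, 0.28 and 0.28 FPKM in fruits and 9.54, 8.04 and 8.29 in stems (-4.58, SE 0.24).

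Aromatic amino acid decarboxylases stand behind several small pathway lists. The lists of anthocyanin, betalain, flavone and flavonol, indole alkaloid and isoflavonoid biosynthesis share 14 unigenes, which make up the whole of the indole alkaloid list, and 5 of these bear the name DDC, TDC. Of the 14, 11 were tested, 4 were higher and 3 lower, so these lists are not 5 separate results. Outside the shared unigenes, flavone and flavonol biosynthesis had 7 of 7 higher (median 2.08), while isoflavonoid biosynthesis had 1 of 5 and betalain biosynthesis 1 of 5. Among the decarboxylases, 3 unigenes matched AAS, which in Arabidopsis makes an aromatic aldehyde from phenylalanine. Cluster-12235.42500 had 193, 146 and 146 FPKM in fruits and 0.91, 1.62 and 1.17 in stems (7.31, SE 0.33). Cluster-12235.45347 rested more on 1 library, at 20.4, 3.49 and 3.09 FPKM in fruits and 0.19, 0.23 and 0.15 in stems, and its change of 5.85 fell to 4.36 without fruit replicate 1.

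Fruit replicate 1 stood above the other fruit libraries in a few more unigenes. Superoxide dismutase (SOD1, Cluster-12235.55562), which removes superoxide, had 115, 22 and 23.3 FPKM in fruits and 0.34, 0.16 and 0 in stems, and its log2 fold change of 8.6 became 7.3 without that library. Pectinesterases (E3.1.1.11), which loosen cell wall pectin, had 2 of 4 tested unigenes higher, both from the study's rows for fruits, and 2 lower. Cluster-12235.15487 had 29.4, 6.85 and 7.39 FPKM in fruits and 0.06, 0 and 0.09 in stems (8.37, or 7.3 without fruit replicate 1). Cluster-21537.0 had 5.59, 0.51 and 0.33 FPKM in fruits and 0 in stems, at least 74.5-fold higher in fruits. Its fitted change of 9.22, which is no bound, became 6.88 without fruit replicate 1. Cluster-12235.20224 was lower in fruits, at 1, 1.25 and 1.09 FPKM against 10, 12.8 and 8.87 (-2.96, SE 0.17).

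Beta-glucosidases (E3.2.1.21), which release aglycones from glucosides, had 6 of 8 unigenes higher and 2 lower. Cluster-12235.43552 had 76.1, 40.9 and 60.9 FPKM in fruits and 0.05, 0.02 and 0.03 in stems (10.9, SE 0.38). Cluster-12235.43554 had 527, 359 and 428 counts in fruits and 0 in stems, at least 550-fold higher in fruits. Of the 6 higher, 5 come from the study's rows for fruits, so the count is no independent evidence. Both lower unigenes were at 1.32 FPKM or less in every fruit and stem library, and both were highest in roots, where Cluster-12235.15610 had a mean of 48.0 FPKM. Summed over the 8, the level was 166 to 275 FPKM in fruits and 11.1 to 11.9 in stems.

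Photosynthesis genes were measured as a sign of green tissue. In the photosynthesis list, held in part, 7 of 16 were higher in fruits and 0 lower (median 0.89), and in the antenna protein list 7 of 18 were higher and 0 lower (median 0.81). The changes were small, at most 1.52 log2 units in each list, and depended on the scaling. With library totals, 3 photosynthesis members were higher and 1 lower, and 2 antenna members were higher. Without fruit replicate 1, 2 photosynthesis members were lower, and without stem replicate 1, 1 was lower. The summed FPKM of the photosynthesis members was 1380 to 1470 in fruits and 787 to 893 in stems, and that of the antenna members was 10100 to 11700 and 9610 to 10400. The RuBisCO small subunit, part of the carbon-fixing enzyme, had 3 of 3 unigenes higher, with Cluster-12235.42921 at 4240, 4330 and 3920 FPKM in fruits and 1680, 1600 and 871 in stems (2.04, SE 0.19). Its highest level was in mature leaves.

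Several families of auxin genes had lower members in fruits. The study had picked 10 unigenes of hormone signal transduction as lower in fruits on these libraries, and all 10 were lower here, which is no independent evidence. Auxin influx carriers (AUX1/LAX) had 5 of 5 unigenes lower, from -4.58 to -2.23 log2 units, where 10.6% of all unigenes tested were lower. Of these 5, 2 were lower by the study's choice. Cluster-12235.71076 had 2.86, 2.46 and 3.91 FPKM in fruits and 103, 80.6 and 112 in stems (-4.58, SE 0.25). AUX/IAA repressors had 4 of 4 lower, from -5.5 to -3.86, 2 of them by the study's choice and 1 with only 2 counts in fruits. Cluster-12235.36768 had 0.47, 0.44 and 0.52 FPKM in fruits and 31.6, 23.9 and 24 in stems (-5.5, SE 0.2), and Cluster-12235.48347 had 0.99, 1.08 and 0.91 in fruits and 49.6, 51.5 and 43 in stems (-5.3, SE 0.18). The library ranges of these genes did not overlap, which also held for 6039 of the 6101 unigenes called lower. Over all unigenes tested, 23.3% had every stem library above every fruit library.

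Auxin synthesis and early response genes went the same way in part. YUCCA enzymes make auxin, and Cluster-12235.67 had 0 counts in fruits and 278, 249 and 403 in stems, at least 247-fold lower in fruits. The study listed it for stems on these libraries, so its mean of at most 0.07 FPKM in the other 3 organs comes with that choice. A second YUCCA unigene, Cluster-12235.6192, had 0.05, 0.1 and 0.09 FPKM in fruits and 1.53, 1.74 and 1.79 in stems (-4.05, SE 0.37). The third, Cluster-23648.1, was higher in fruits on only 3, 4 and 1 counts, against 0 in stems. SAUR genes, which respond early to auxin, had 3 of 6 tested unigenes lower and 0 higher, 1 of the 3 by the study's choice. Among them, Cluster-12235.73902 had 1.35, 0.71 and 0.95 FPKM in fruits and 10.6, 9.18 and 12.6 in stems (-3.13, SE 0.31). Another auxin family, GH3, had 1 of 2 unigenes higher and 0 lower. The hormone signalling list from annotation, held in part, had 3 of 17 lower and 1 higher (median -0.18), so the stem side of these families does not describe that list.

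**Figure D5:**
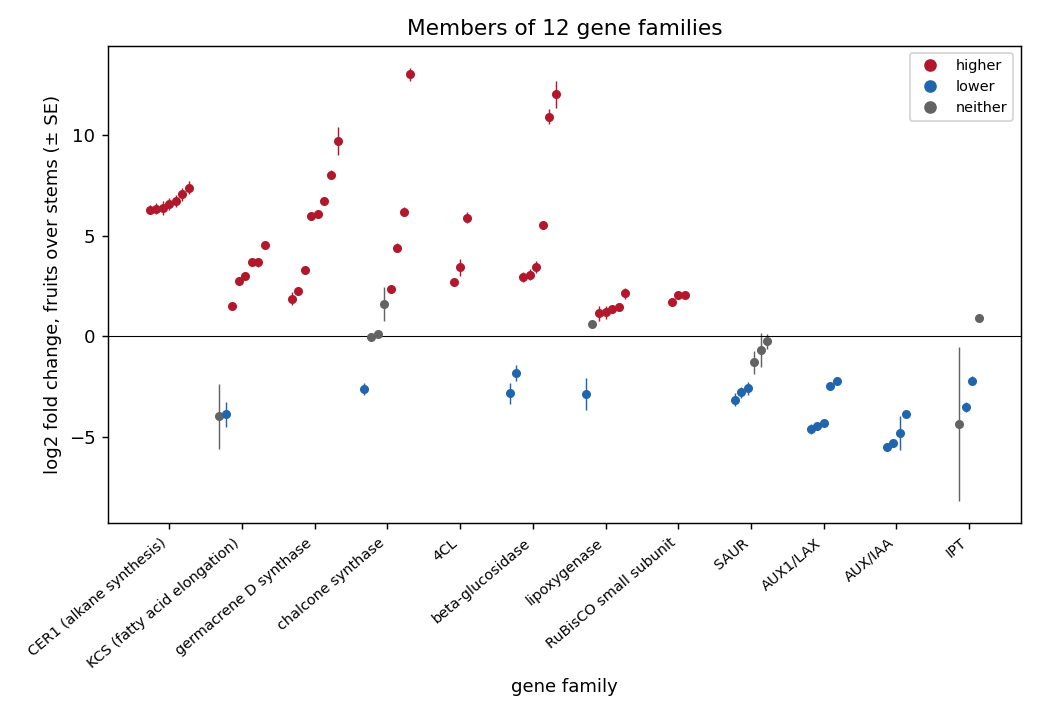
Points are unigenes of 12 gene families, with the fitted log2 fold change of fruits over stems and its SE, coloured by call. CER1 members lie between 6.29 and 7.38, chalcone synthases spread from -2.61 to 13.01, and the AUX1/LAX and AUX/IAA members all lie below -2.2. Points with 0 counts in 1 organ are fitted values and not bounds.

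Single genes of other hormones were lower in fruits as well, while the gibberellin 2-oxidase and the jasmonate methyltransferase above were higher. The study had picked both of these as higher in fruits on the same libraries. Also higher were 2 of 2 unigenes named TGA, and the NCED unigene Cluster-12235.35635 (3.31, SE 0.15), which the study picked as higher in fruits. ARR-A, PIF4 and NPR1 were picked by the study as lower in fruits on these libraries. The cytokinin response regulator ARR-A (Cluster-12235.72047) had 3.89, 3.78 and 4.52 FPKM in fruits and 65.3, 62.6 and 76.9 in stems (-3.78, SE 0.2). Isopentenyl transferases (IPT), which start cytokinin synthesis, had 2 of 4 lower and 0 higher, with Cluster-12235.4640 at 0.6, 0.52 and 0.63 FPKM in fruits and 7.67, 7.68 and 8.58 in stems (-3.48, SE 0.25). The light-signalling factor PIF4 had both unigenes lower, by -4.48 (SE 0.15) for Cluster-12235.72330 and -3.92 (SE 0.14) for Cluster-12235.72331, and NPR1 (Cluster-12235.11128), a receptor of salicylic acid, changed by -4 (SE 0.18). In brassinosteroid biosynthesis, Cluster-12235.2505 had 1, 0 and 1 counts in fruits and 60, 75 and 95 in stems, a ratio of 91.6 (95% exact interval 25.1 to 761, counting error only). Cluster-12235.5951 was its largest rise, at 3.2, 2.55 and 7.23 FPKM in fruits and 0.41, 0.17 and 0.72 in stems (3.59, SE 0.44).

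Among the remaining genes lower in fruits, Cluster-12235.71089 of the DNA replication list had 2.82, 3.23 and 3.01 FPKM in fruits and 34.2, 33.6 and 39.2 in stems (-3.27, SE 0.13), and was highest in leaf buds. Fructokinases (E2.7.1.4), which phosphorylate fructose, had both listed unigenes lower, with Cluster-12235.71141 at 1.26, 1.03 and 2.59 FPKM in fruits and 18.2, 19.8 and 18.6 in stems (-3.25, SE 0.22). The lysophospholipase LYPLA2 (Cluster-12235.71176) had 10.2, 17.4 and 9.57 FPKM in fruits and 104, 107 and 107 in stems (-2.72, SE 0.19). CYP79A2, which in Arabidopsis makes an oxime from phenylalanine, had both unigenes lower. Cluster-12235.32902 had 0.31, 1.69 and 0.38 FPKM in fruits and 7.41, 9.53 and 7.58 in stems (-2.99, SE 0.31), and without fruit replicate 2 its change was -4.23. In all, the study's rows of unigenes lower in fruits held 19 unigenes, all of them lower here by that choice.

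Unigenes named as ribosomal proteins carried few reads. Of 90 such unigenes in the study's organ lists, only 35 passed the filter, 19 of these were higher in fruits and 0 lower. The study had listed 16 of the 19 for fruits on these same libraries, so those calls are no independent evidence, and of the 19 other tested unigenes 3 were higher. All 90 together held 634, 896 and 653 counts in the fruit libraries and 30, 42 and 16 in the stem libraries, at most 0.00376% of a library. The ribosome list from annotation, held in part, had 2 of 10 tested members higher and 0 lower, with a median of 0.14.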

How the data were processed

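The authors sequenced the libraries on an Illumina instrument, used CASAVA 1.8 per the labels, trimmed the reads and assembled those of all organs with Trinity. They deposited, for each library, an estimated count and an FPKM value per unigene. The aligner and counter, and the treatment of fragments that match several unigenes, are not given in the sources used here, so values of near-identical unigenes are uncertain. Stem columns have a different short name in the file headers, and their sample was taken from the labels.

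Estimated counts, rounded to whole numbers, entered edgeR 4.0.16 under R 4.3.3 (filterByExpr with minimum count 10 and minimum total count 15, TMM factors, quasi-likelihood F test, prior count 0.125). The fit held 15 libraries in 5 groups, left 10 residual degrees of freedom, and was tested on simulated data. Benjamini-Hochberg adjustment ran over the p-values of all 57488 unigenes. The SE of a log2 fold change is its size over the square root of F. Folds against 0 counts took a floor of 3 counts over 3 libraries, and exact intervals had a confidence level of 0.95. DESeq2 1.42.0, other scalings, filters, thresholds, the replicate number as a block, and each fruit and stem library left out in turn were tried.

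Members and lists were chosen with earlier results of these data known. Named unigenes were those with a primer pair, those with the largest changes among named unigenes or in each list, the most abundant of each step, members of lists of at most 12, and the 2 largest changes in each direction over all. Cluster-12235.2960 and the unigenes of brassinosteroid synthesis, DNA replication and diterpenoids came in as extremes of their lists. Several lists were held in part, so no set test was run.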

Additional observations from a re-analysis of the deposited data

How the results depend on the processing

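Counts of higher and lower unigenes stayed within 1.5 times of the reported values under every other normalization, filter, tool and left-out library tried, and moved with the threshold on size. With an absolute log2 fold change over 2, 3325 were higher and 3242 lower, and edgeR's glmTreat test against a log2 fold change of 1 gave 4296 and 4062. Leaving out 1 fruit or stem library gave 6479 to 6859 higher and 5793 to 5956 lower unigenes, with 52.3% to 53.8% of calls higher. That share was 39.1% with library totals and 49.2% with only the 6 libraries compared. Deviations from the organ means correlated at 0.037, 0.002 and 0.047 between same-numbered fruit and stem libraries, and at -0.052 to 0.023 between differently numbered ones. Values this close to 0 cannot decide whether same-numbered libraries share trees, which the labels do not say. A fit with the replicate number as a block gave 6680 higher and 6034 lower unigenes. Among the named unigenes, library totals lost 7 calls, added 2 and turned 4 unigenes that had not been called, Cluster-12235.43508 (-0.16 log2 units), Cluster-12235.48131 (-0.13), Cluster-12235.64197 (-0.01) and Cluster-12235.64198 (-0.11). Without fruit replicate 2, the uncalled Cluster-12235.44364 turned to 0.01, and it lay between -0.08 and 0.01 over the libraries left out in turn. The cause was not tested.

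Some unigenes with few counts in 1 organ, such as Cluster-12235.40340, have fitted changes that moved by over 1 log2 unit when 1 library was left out. Counting intervals do not cover differences between trees.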
